A study of Mus musculus with 6 samples.

Results

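The genes described here are 40 genes of mitosis and cytokinesis, chosen by name, of which 39 were measured among 18193 genes. Where several probe sets named a gene, the brightest on average over the 6 arrays stood for it. Ccnb1 had no probe set under its symbol in the platform annotation used here and is not analysed. Of the 39 genes, 6 act in cytokinesis (Kif20a, Kif23, Racgap1, Ect2, Anln and Prc1) and are also described apart.

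The hearts came from mice at postnatal day 10, 3 wild type and 3 with a knockout of miR-1-2, each on 1 array. miR-1, a muscle microRNA, is made from miR-1-2 and from a further gene that the knockout leaves in place, and the work on these mice asked among other things about control of the cell cycle. The tissue was whole heart, so cardiomyocytes and all other cardiac cells contributed RNA, and in such samples fewer cells of a type and less RNA per cell cannot be told apart. The sources used here give no strain, litter or sex, nor the extent of the deletion or the cells in which it was made, and no treatment is named.

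Entry into mitosis is driven by cyclin B and cyclin A with the kinase Cdk1. The spindle then captures chromosomes at their kinetochores, a checkpoint delays anaphase until all are attached, and a ubiquitin ligase with its activator Cdc20 releases it. Cytokinesis follows, in which a central spindle and a contractile ring divide the cell. In the mouse heart, cardiomyocytes largely stop dividing in the first weeks after birth, and some replicate their nuclei without dividing the cell, which is why the genes of the last step are of interest apart. Many of these genes share promoter elements, the CCAAT box bound by NF-Y and the cell cycle homology region, and are switched on together in the second part of the cycle.

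Promoters are shown here because the genes varied together from heart to heart. RefSeq promoters (GRCm38.p6) were found for 34 of the 40 genes, 36 promoters in all, and the 250 bases before each start were searched on both strands. The first motif was CCAAT, which reads ATTGG on the opposite strand. The second was TTTGAA, a common form of the homology region, and its match on the opposite strand was searched as well. CCAAT was present in 29 of the 36 promoters (80.6%), against 33.9% of all 32851 promoters in the table, and 2 or more copies were present in 52.8% against 10.1%. TTTGAA was present in 14 of 36 (38.9%), against 16.0% of all promoters. Both were present in 13 (36.1%), against 5.55%. The 6 stretches below hold the 100 bases before the start, with CCAAT and TTTGAA on either strand in capitals. In each the start is that of the RefSeq gene and no other gene overlaps. Ube2c, Cdc20, Cdk1 and Kif11 are examples with both motifs, Ccnb2 of CCAAT alone within the stretch shown, and Racgap1 is a cytokinesis gene.
Ube2c (chr2:164769829-164769928, plus strand): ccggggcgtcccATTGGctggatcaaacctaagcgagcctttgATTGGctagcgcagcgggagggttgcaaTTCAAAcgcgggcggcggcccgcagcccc
Cdc20 (chr4:118437344-118437443, minus strand): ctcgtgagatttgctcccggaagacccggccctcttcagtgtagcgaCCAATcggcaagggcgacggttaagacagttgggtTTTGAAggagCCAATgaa
Cdk1 (chr10:69352913-69353012, minus strand): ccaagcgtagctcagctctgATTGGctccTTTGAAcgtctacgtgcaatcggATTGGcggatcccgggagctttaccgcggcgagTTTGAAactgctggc
Kif11 (chr19:37376282-37376381, plus strand): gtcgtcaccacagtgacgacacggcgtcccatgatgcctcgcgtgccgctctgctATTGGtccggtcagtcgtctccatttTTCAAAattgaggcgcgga
Ccnb2 (chr9:70421555-70421654, minus strand): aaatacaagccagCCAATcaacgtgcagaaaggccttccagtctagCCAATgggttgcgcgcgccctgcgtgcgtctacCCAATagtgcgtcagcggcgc
Racgap1 (chr15:99651657-99651756, minus strand): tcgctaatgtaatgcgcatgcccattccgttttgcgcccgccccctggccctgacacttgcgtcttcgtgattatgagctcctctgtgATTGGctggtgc
From the start of a CCAAT to the start of the TTTGAA nearest the gene, the spacing was 28 bases in Ube2c, 35 in Cdc20, 33 in Cdk1 and 26 in Kif11. Ccnb2 held 3 CCAAT copies in this stretch and no TTTGAA, and Racgap1 held 1 CCAAT. No overlap between the motifs occurred in the stretches shown. A match describes letters in a window and does not show that a factor binds there. Bases after the start were not searched, so a motif there would be missed.

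The values are log2 expression values made by RMA, a method that corrects background, equalises the arrays and summarises the probes of each probe set. Array medians lay between 6.03 and 6.11, and the number of arrays limits the precision. Cardiomyocyte markers stood at a mean of 13.59 to 13.67 in wild type and 13.60 to 13.70 in knockout, so the labelled tissue was borne out. The hearts differed in more than genotype. The level of Xist, which coats the inactive X chromosome, was between 11.91 and 12.19 in the wild-type hearts and knockout 2, and at 7.55 and 7.57 in knockouts 1 and 3, where the Y-linked Eif2s3y was high (7.63 and 8.35, against at most 3.16 elsewhere). Ucp1, which makes heat in brown fat, read 9.45 in wild type 1 and 10.39 in knockout 1, and at most 6.68 in the other hearts.

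Between genotypes, no mitosis or cytokinesis gene passed the test. With limma fitted over all genes and Benjamini-Hochberg adjustment at 0.05, 0 of 39 passed, where 0% of all genes did, and the adjusted p was 1.00 for each. At an unadjusted p of 0.05, 1 of the 39 was counted, Ttk, against 4.10% of all genes. The signs leaned one way. The mean was higher in knockout for 33 of the 39 genes and lower for 6, where 50.2% of all genes were higher. The sizes were small: the median log2 difference was 0.071, or 1.05-fold, beside 0.00050 over all genes, and differences ran from -0.077 to 0.30. The genes share hearts and vary together, so the 33 are not independent counts.

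**Figure D1:**
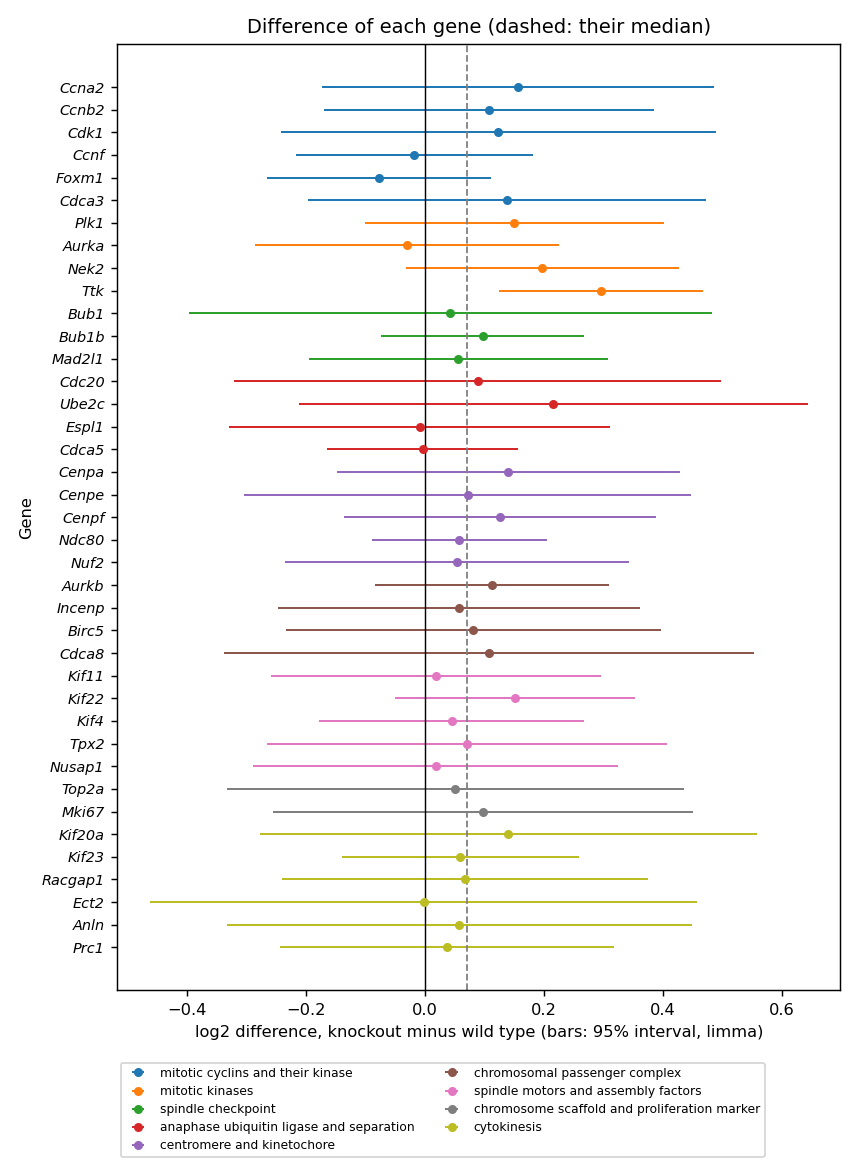
The log2 difference between knockout and wild-type means (horizontal axis) is plotted for each of the 39 genes (vertical axis), coloured by role, with the 95% interval from limma as a bar and the median of 0.071 as a dashed line. Most points lie right of 0, and the interval excludes 0 for Ttk alone, with no adjustment for the number of genes.

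Intervals here are from the fit without the replicate number. The typical 95% interval reached 0.29 to either side of a difference, and the typical SD between hearts of a genotype was 0.20, against 0.11 over all genes. The highest upper bound among the 39 was 0.64, for Ube2c, and the lowest lower bound was -0.46, for Ect2. With the replicate number as a block, the interval was narrower for 36 of the 39 genes and typically reached 0.18 to either side. That for Ube2c then ran from 0.058 to 0.37, and that for Ect2 had a lower bound of -0.25. These narrower intervals assume that the numbers pair the hearts, which the titles do not state.

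Among the mitotic cyclins, their kinase and its regulators, 4 of 6 genes were higher in knockout and 2 lower, and 0 passed. Ccna2, cyclin A2, read 7.85, 8.16 and 8.30 in the wild-type hearts and 7.99, 8.34 and 8.45 in the knockout hearts. The ranges overlapped, and the first heart of each genotype was the lowest. The means were 8.10 ± 0.23 (SD, n = 3) and 8.26 ± 0.24, a difference of 0.16 ± 0.14 (SE). Cdk1 differed by 0.12 and Ccnb2, cyclin B2, by 0.11. Cdca3, a factor of mitotic entry, differed by 0.14. Foxm1, the transcription factor of this gene group, had -0.077 by its brightest probe set, while its other 3 probe sets gave 0.0089 to 0.12 and the mean of all gave 0.017. The negative sign thus belongs to 1 of its 4 probe sets. Cyclin F, an F-box protein encoded by Ccnf, had -0.017.

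Of the 4 mitotic kinases, 3 were higher and 1 lower. Ttk, the checkpoint kinase also called Mps1, read 6.22, 6.26 and 6.41 in wild type and 6.58, 6.63 and 6.57 in knockout. Every knockout heart lay above every wild-type heart. The means were 6.30 ± 0.10 (SD, n = 3) and 6.59 ± 0.03, a difference of 0.30 ± 0.08 (SE) or 1.23-fold. The 95% interval was 0.12 to 0.47, and the limma p was 0.00381 before and 1.00 after adjustment over all genes. This rests on the brighter of its probe sets: the other, near 4.97 on average, differed by -0.15, and with the mean of both the difference fell to 0.072. Nek2, a centrosome kinase, differed by 0.20 by its brightest probe set. Its dimmer probe sets gave -0.025, -0.049 and 0.14, and the mean of all gave 0.065. Plk1, the polo kinase of mitotic entry and exit, differed by 0.15, and Aurka, the kinase of spindle poles, by -0.029.

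The 3 spindle checkpoint genes were all higher in knockout by small amounts, and 0 passed. Bub1b, the checkpoint protein BubR1, read 6.87, 7.03 and 7.02 in wild type and 7.05, 7.13 and 7.04 in knockout. The knockout values were all above the wild-type values, though by as little as the gap between 7.03 and 7.04. The difference was 0.097, with a 95% interval from -0.074 to 0.27. Its dimmer probe sets gave 0.061 and -0.078, with overlapping genotypes. Mad2l1, which holds back Cdc20, differed by 0.056 and Bub1, a kinase at the kinetochore, by 0.043.

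Among genes of the anaphase ligase and of sister separation and its control, 2 were higher and 2 lower, the lower ones by very little. Ube2c, the ubiquitin-conjugating enzyme of the anaphase ligase, read 8.50, 9.004 and 9.07 in wild type and 8.71, 9.19 and 9.31 in knockout. The spread within a genotype was wider than the gap between them, since the first heart of each stood far below the other hearts. The means were 8.86 ± 0.31 (SD, n = 3) and 9.07 ± 0.32, a difference of 0.22 ± 0.19 (SE). Ube2c was higher in knockout in each of the 3 replicate numbers. Cdc20 differed by 0.089, Espl1, the protease separase, by -0.0080 and Cdca5, the cohesin protector sororin, by -0.0032.

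All 5 centromere and kinetochore genes were higher, and 0 passed. Cenpa, the histone that marks centromeres, read 8.80, 8.68 and 8.70 in wild type and 8.56, 8.96 and 9.07 in knockout. Knockout 1 was the lowest of the 6 hearts, and knockouts 2 and 3 were the highest. The difference was 0.14 ± 0.13 (SE). A dimmer Cenpa probe set went the opposite way, by -0.21. Cenpf, a large kinetochore protein, differed by 0.13, Cenpe, a kinetochore motor, by 0.073, and Ndc80 and Nuf2, subunits of the complex that holds microtubules, by 0.058 and 0.054. Ndc80 had knockout hearts apart from wild type (5.57 to 5.63 against 5.53 to 5.55), at levels below the array medians.

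The 4 genes of the chromosomal passenger complex, which corrects attachments and later moves to the division plane, were all higher, and 0 passed. Its kinase Aurkb read 6.38, 6.42 and 6.56 in wild type and 6.48, 6.70 and 6.52 in knockout. The ranges overlapped, and the difference was 0.11 ± 0.09 (SE). Cdca8 (borealin) differed by 0.11, Birc5 (survivin) by 0.082 and Incenp, the scaffold, by 0.058.

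The 5 spindle motors and assembly factors were higher too, by 0.018 to 0.15, and 0 passed. Kif22, a motor that pushes chromosome arms, read 8.26, 8.50 and 8.51 in wild type and 8.52, 8.56 and 8.66 in knockout. The groups did not overlap, and the lowest knockout heart exceeded the highest wild-type heart by very little. The difference was 0.15, with a 95% interval from -0.050 to 0.35. Its other probe sets went the same way, by 0.18 and 0.37, though by their names 2 of the 3 may hybridise to other transcripts as well. The probe sets of Tpx2, which activates Aurka on the spindle, disagreed. The brightest was highest in knockout 1 at 7.52 and lowest in knockout 2 at 6.90. A dimmer one read 5.95, 6.06 and 6.40 in wild type and 6.01, 6.52 and 6.48 in knockout, low in both first hearts like most of these genes.

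Counting the genes with knockout hearts all above wild type gave Ttk, Bub1b, Ndc80 and Kif22, or 4 of 39, where 4.57% of all genes did so. For Ttk, Bub1b and Kif22 that rests on the brightest probe set, and in their other probe sets the genotypes overlapped. The opposite order occurred in 0 of 39, against 4.28% of all genes. Among markers of cycling cells, Mki67, the proliferation marker Ki-67, read 8.14, 8.28 and 8.61 in wild type and 8.14, 8.61 and 8.57 in knockout. The first hearts of the genotypes were alike, and the ranges covered each other. The difference was 0.098 ± 0.15 (SE). Top2a, the topoisomerase that untangles sister chromosomes, differed by 0.052.

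The cytokinesis genes had a median difference of 0.059 between genotypes, beside 0.082 for the other 33 genes, and a typical SD between hearts of 0.25, beside 0.20. Of the 6, 5 were higher in knockout and 1 lower, 0 had an unadjusted p under 0.05, and in 0 were the genotypes apart. Kif20a, the motor that carries the passenger complex to the central spindle, read 5.44, 5.91 and 6.18 in wild type and 5.74, 6.05 and 6.17 in knockout, a difference of 0.14 ± 0.18 (SE). Wild type 1 was the lowest and wild type 3 the highest of the 6 hearts.

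The pair of proteins that form centralspindlin, the bundler of the central spindle, were Kif23 and Racgap1. Kif23, its motor, read 6.95, 6.71 and 6.90 in wild type and 6.90, 6.83 and 7.01 in knockout, a difference of 0.060. Racgap1, its GTPase-activating subunit, read 6.24, 6.53 and 6.66 in wild type and 6.31, 6.71 and 6.62 in knockout, a difference of 0.068. Racgap1 was low in the first heart of each genotype and Kif23 was not, so by these probe sets the partners varied differently across hearts. The dimmer Kif23 probe sets, near 4.23 and 3.36 on average, were not lowest in both first hearts either.

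Ect2, the exchange factor that switches on RhoA at the division plane, read 5.97, 6.22 and 6.26 in wild type and 5.62, 6.49 and 6.32 in knockout. The knockout hearts spanned the wild-type range on both sides, and the difference was -0.0013 with a 95% interval from -0.46 to 0.46. Anln, the anillin that ties actin, myosin and septins in the ring, read 6.83, 7.35 and 7.41 in wild type and 6.97, 7.35 and 7.44 in knockout, a difference of 0.058. Prc1, which crosslinks the central spindle, read 8.08, 8.23 and 8.44 in wild type and 8.08, 8.47 and 8.30 in knockout, a difference of 0.037. In Anln and Prc1 the genotypes covered almost the same range.

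**Figure D2:**
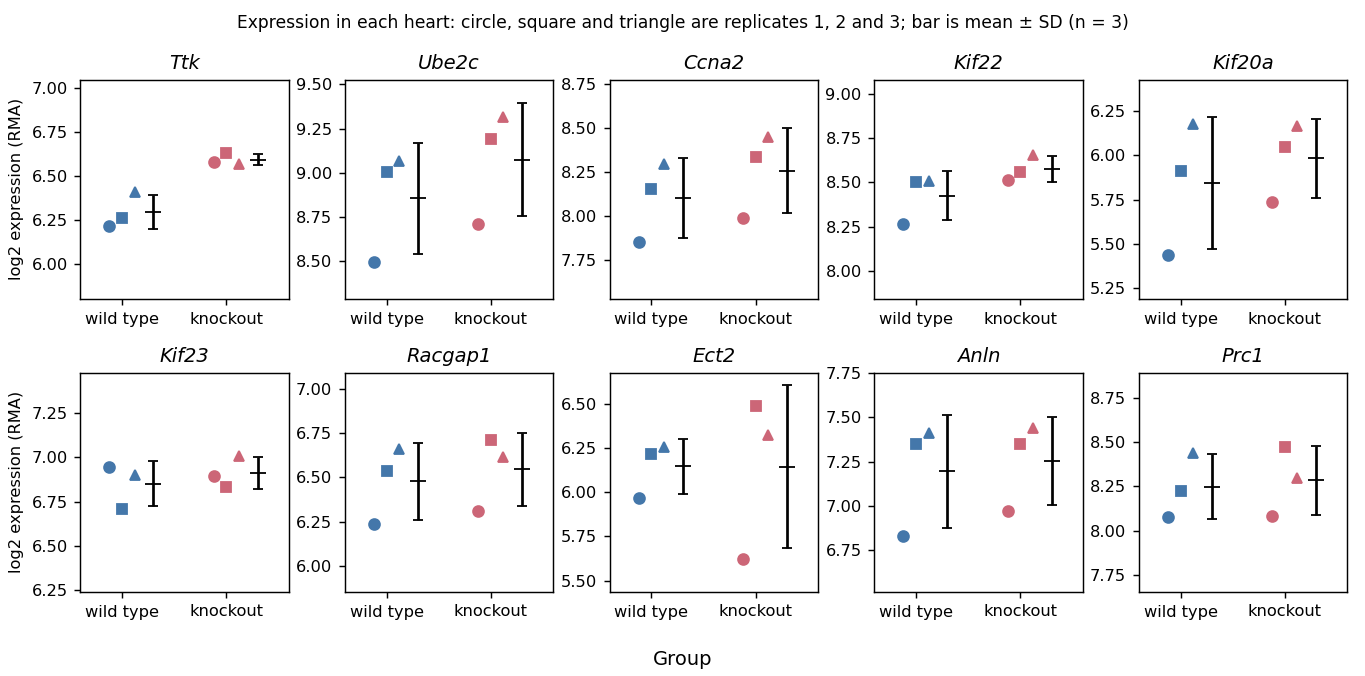
Log2 expression (vertical axis) in wild-type and knockout hearts (horizontal axis) is drawn for 4 mitosis genes and the 6 cytokinesis genes, with replicates 1, 2 and 3 as circle, square and triangle and the mean ± SD (n = 3) as a bar; each panel spans the same height. Ttk and Kif22 have genotypes that do not overlap. In Kif22, Ube2c, Ccna2, Kif20a, Racgap1, Ect2, Anln and Prc1 the circle is the lowest symbol of each genotype.

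The difference between hearts was larger than that between genotypes. Each gene was set against its own mean over the 6 hearts, and the median of these deviations over the 39 genes was taken in each heart. It was -0.22, 0.00020 and 0.094 in wild types 1, 2 and 3, and -0.19, 0.16 and 0.14 in knockouts 1, 2 and 3. The first heart of each genotype was thus low, and the other 4 were at or above 0, while the median of all genes lay between -0.0022 and 0.0068 in every heart. The cytokinesis genes gave -0.23, 0.012 and 0.16 in wild type and -0.19, 0.17 and 0.15 in knockout.

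**Figure D3:**
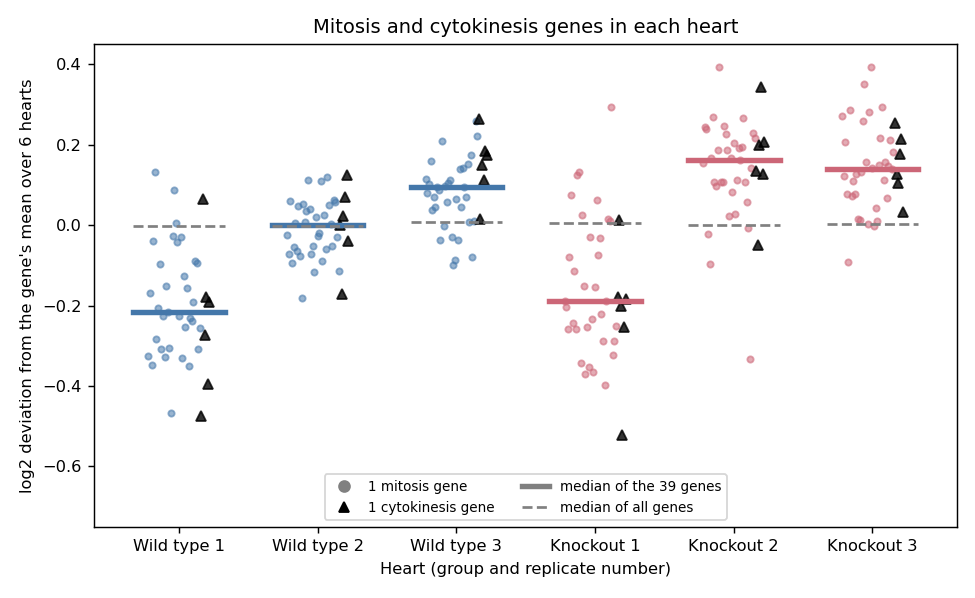
The log2 deviation of each gene from its mean over 6 hearts (vertical axis) is plotted by heart (horizontal axis), with mitosis genes as circles, cytokinesis genes as triangles, the median of the 39 as a thick line and the median of all genes as a dashed line. Wild type 1 and knockout 1 lie low, at medians of -0.22 and -0.19, and knockouts 2 and 3 highest, at 0.16 and 0.14.

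Counts by gene gave the same picture. The first wild-type heart was the lowest of its genotype for 31 of 39 genes, where 39.2% of all genes were lowest there. Knockout 1 was the lowest of its genotype for 31 of 39, where 39.9% of all genes were. Both held for 26 genes, 5 of them cytokinesis genes, against 24.9% of all genes. Knockout 3 was the highest of the 6 hearts for 14 genes, against 15.6% of all genes, and knockout 2 for 13, against 23.5%. Wild type 1 was the lowest of the 6 for 22, against 17.2%.

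With the genotype means removed, each gene was correlated over the 6 arrays with the median profile of the other 38 genes. The median r was 0.90, and 20 of 39 genes exceeded 0.9. Incenp (0.99), Cdk1 (0.99), Cenpf (0.99) and Mad2l1 (0.98) were closest to the shared profile. Of the cytokinesis genes, Racgap1 (0.97), Anln (0.95), Ect2 (0.93), Kif20a (0.91) and Prc1 (0.90) followed it. Foxm1 (-0.88), Ndc80 (-0.69), Tpx2 (-0.49), Cdca5 (-0.28) and Kif23 (-0.15) did not by the probe sets that stood for them, and Ttk reached 0.59. A dimmer probe set of Foxm1 and a dimmer one of Tpx2 were lowest in the first heart of both genotypes, and their other probe sets were not. That of Foxm1 read 5.74, 5.96 and 5.98 in wild type and 5.82, 6.15 and 6.08 in knockout. Of the 46 probe sets not chosen to stand for a gene, 17 were lowest in replicate 1 of both genotypes, against 19.1% of all probe sets. Over all other genes the median r with the profile was -0.077, and 11.0% exceeded 0.9. The first hearts deviated most and so weigh most in r, which is given as a description.

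**Figure D4:**
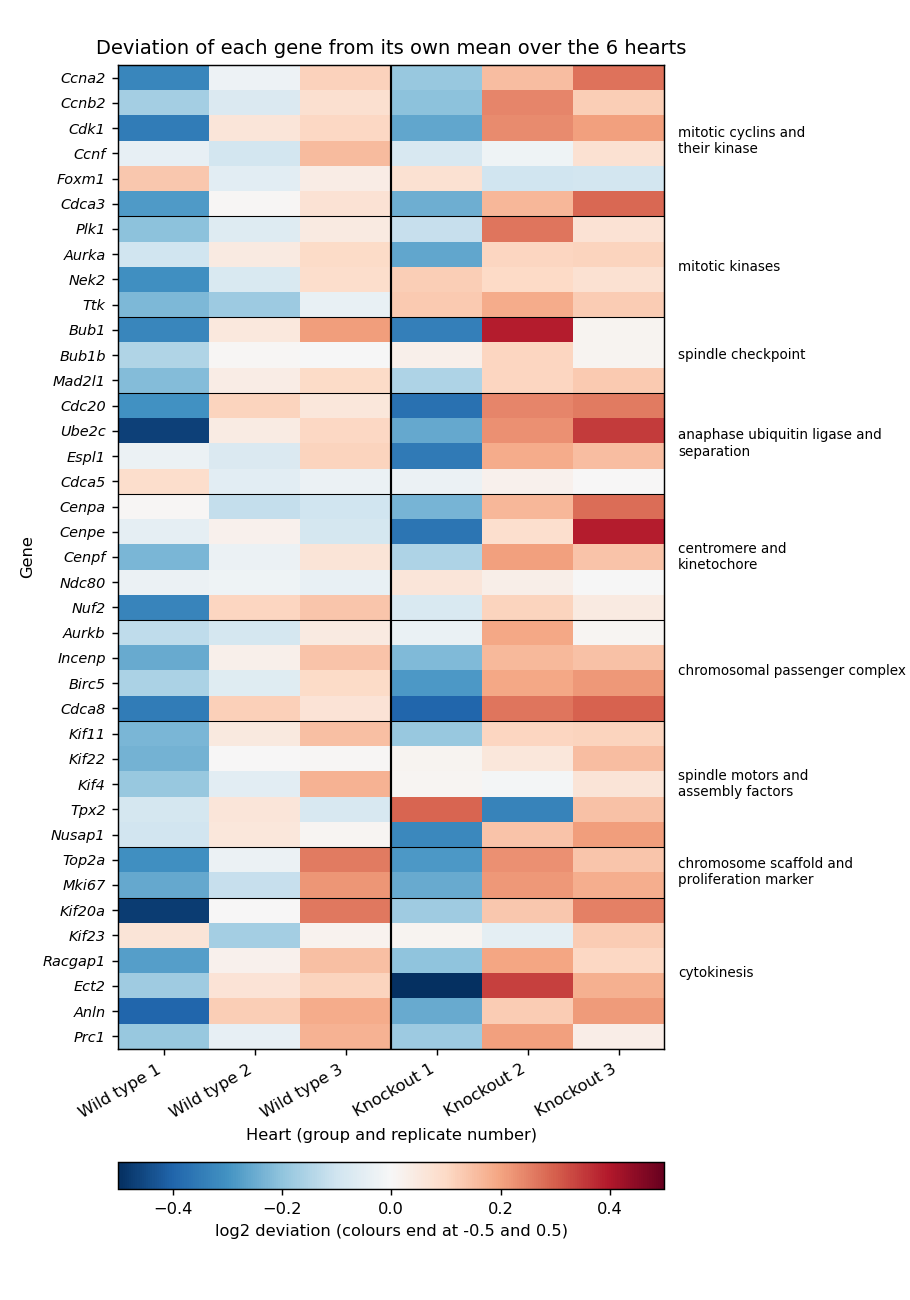
The log2 deviation of each of the 39 genes (rows, grouped by role) from its own mean is shown for each heart (columns), blue below and red above the mean. The columns of wild type 1 and knockout 1 are mostly blue, with Foxm1 and Tpx2 among the exceptions in knockout 1.

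Other features of the arrays moved with this pattern. Brown fat markers (5 of 6 listed were measured) had a mean of 7.45 for wild type 1 and 7.77 for knockout 1, against 6.44 to 6.68 for the other hearts. Among them Cidea read 9.61 and 9.77 in the first hearts and 8.73 to 9.21 in the others, while Dio2 stayed between 6.25 and 6.54. Of the 5, 3 were highest in replicate 1 of both genotypes, as were 3937 of all 18193 genes. Thymocyte and lymphocyte markers (9 of 11 measured) stood at 6.04 and 5.75 in the first hearts, against 5.48 to 5.64. Of the 9, 6 were highest in replicate 1 of both genotypes. Endothelial markers (7 of 7) were at 9.07 in both first hearts and at 9.24 to 9.34 in the others. Of the 7, 6 were lowest in replicate 1 of both genotypes, against 24.9% of all genes. For cardiomyocyte markers that held for 6 of 8, within a narrow range of 13.59 to 13.70. Fibroblast markers (8 of 8) ran from 11.42 to 11.67, erythroid markers (4 of 6) from 6.56 to 6.78, smooth muscle and pericyte markers (5 of 5) from 8.87 to 9.06 and epicardial markers (4 of 4) from 6.28 to 6.90. The part of these cells in the levels of the mitosis genes was not tested.

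Macrophages, which can divide in the young heart, had markers that were lower in knockout. Of 7 markers 0 were higher in knockout, against 50.2% of all genes, with a median difference of -0.25. List means were 7.48 to 7.71 in wild type and 7.21 to 7.42 in knockout. Replicate 1 was highest in both genotypes for 5 of the 7 markers, and for 3937 of all 18193 genes. Of the 7, 5 had an unadjusted p under 0.05, against 4.10% of all genes, and 0 passed over all genes. The part of macrophages in the levels of the mitosis genes was not tested.

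The comparison depended on which hearts were in it. Compared by replicate number, knockout minus wild type had a median of 0.038 for replicate 1 (24 of 39 genes higher), 0.15 for replicate 2 (37 higher) and 0.034 for replicate 3 (26 higher). The lean towards knockout was thus greatest in replicate 2. For 13 of the 39 genes, and for 1 of the 6 cytokinesis genes (Anln), knockout was above wild type in 3 of 3 numbers, where 15.2% of all genes were. With the replicate number as a block, 0 of 39 passed where 0.0715% of all genes did, and 2 had an unadjusted p under 0.05, against 7.29% of all genes. Both of the 2 were higher in knockout, as were 4.29% of all genes at that threshold. They were Ttk, with a limma adjusted p = 0.376, and Ube2c, with a limma adjusted p = 0.541. With array weights, which give less weight to arrays that deviate more, 1 of 39 passed, Ttk, where 2.29% of all genes did.

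Leaving out wild type 1 turned the lean: the median difference was then -0.019 and 18 of 39 genes were higher, with -0.057 for the cytokinesis genes. Without knockout 1 the median was 0.19, 37 genes were higher and 14 had an unadjusted p under 0.05, where 17.5% of all genes did. In that fit 0 of 39 passed, the smallest adjusted p among them being 0.190, for Ttk and Cenpa (limma). Without knockout 2 the median fell to 0.015 (-0.0027 for the cytokinesis genes), and without knockout 3 to 0.030. Without knockout 2, wild-type hearts with high Xist are compared with knockouts with low Xist, and sex and genotype cannot be told apart. Leaving out wild type 3 gave 0.14, and leaving out wild type 2 gave 0.097. Ttk kept a difference of 0.26 to 0.35 in these 6 fits.

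By Xist, sex was not balanced between the groups. Knockout 2 was the knockout heart with high Xist, as were the 3 wild-type hearts, and against their mean it had a median difference of 0.21 over the 39 genes. It lay above all 3 wild-type hearts for 27 of 39 genes, where 33.8% of all genes did, and for 3 of the 6 cytokinesis genes. Knockout 3, with low Xist, had a median of 0.18 against the same mean, and knockout 1, also with low Xist, had -0.15. With the Xist level as a covariate the median was 0.22, 35 genes were higher and 0 passed. The low-Xist knockouts thus lay on both sides of wild type, and the high-Xist comparison rests on 1 knockout heart. So, largely, does the fit with the covariate, because the low Xist of knockouts 1 and 3 has no wild-type counterpart.

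**Figure D5:**
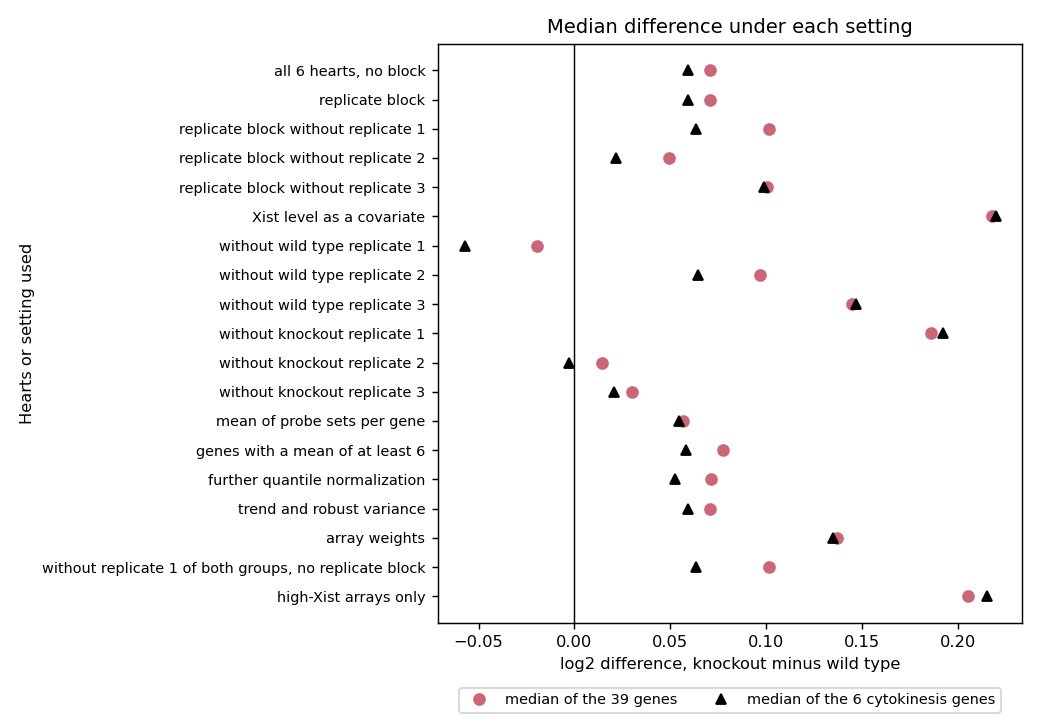
The median log2 difference between knockout and wild type (horizontal axis) is given for the 39 genes (circles) and the 6 cytokinesis genes (triangles) under each setting (vertical axis). Values run from -0.019 without wild type 1 to 0.22 with the Xist covariate for the 39 genes.

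Choice of probe set mattered for single genes. The 39 genes had 85 probe sets that named them alone, of which 58 were higher in knockout, with a median difference of 0.054. Over all 45037 probe sets 47.1% were higher. Of 26 genes with several probe sets, 8 had all in one direction and 18 had at least 1 the other way. Over all probe sets 0 of the 85 passed with limma, where 0.00666% of all did, and 5 had an unadjusted p under 0.05, against 3.94% of all. The 5 were those of Ttk and Kif22 given above, a dim Ccnf probe set (0.22), the dim Cenpa probe set and a dim Nusap1 probe set (-0.19).

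Other genes of the same processes were counted from lists. Of 59 further mitosis genes, 35 were higher in knockout (59.3%, against 50.2% of all genes) and 24 lower, with a median of 0.013. Without the block 0 of them passed, where 0% of all genes did. In that fit 0 had an unadjusted p under 0.05, against 4.10% of all genes. Those with the smallest p among the higher were Ckap5 (0.13), a microtubule polymerase, Dsn1 (0.13), a kinetochore subunit, and Wee1 (0.21), the kinase that restrains Cdk1. Among the lower, those with the smallest p were Kif14 (-0.14), Haus1 (-0.14), Cenpn (-0.11) and Tacc3 (-0.099). Kif14 read only 3.06 to 3.43 over the hearts, far below the array medians. Of 12 further cytokinesis genes 9 were higher, with a median of 0.018, and 0 passed. Tsg101, of the machinery that cuts the last bridge between daughter cells, differed by 0.10. The low first hearts appeared here too: replicate 1 was lowest in both genotypes for 32 of the 59 and 9 of the 12.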

How the data were processed

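RNA from Trizol extraction was amplified in a single round and carried biotin, per the labels' protocols. The submitters' processing notes name GCOS 1.4. The authors made the deposited log2 values by RMA with the affy package, per the series' design text; its version is not given in the sources used here. Differences between dim probe sets are compressed by RMA, and no detection calls were used.

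After removal of 64 control probe sets, 45037 remained. Those naming 1 gene in the platform annotation (34945) were kept, with symbols updated by identifier through RefSeq GRCm38.p6 (18031 of 18193 genes matched), and the brightest stood for its gene. Arrays correlated at 0.991 to 0.997, and 0 pairs were identical. Arrays were treated as separate mice, as the series' design text gives 3 per genotype. Genotypes were compared with limma 3.58.1 in R 4.3.3 (lmFit, eBayes), without a block, and p-values were adjusted over all genes. The steps were checked on simulated data of 18193 genes, in which 95 of 100 genes changed 1.5-fold were recovered and 17 unchanged genes were called. Mitosis genes vary more than most genes, so this share is not theirs.

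Titles number the hearts 1 to 3 in both genotypes. Deviations of same-numbered hearts correlated at 0.54, 0.18 and 0.13 over genes, each above 0.1. By the rule used here, a fit with the number as a block is therefore given beside the unblocked one where it differs. Crossed numbers 2 and 3 correlated more (0.35 and 0.30), so for these hearts the values do not show a pairing by number. The titles do not say what the numbers pair. Deviations were taken within 3 hearts, so the shared first hearts alone raise the values for numbers 2 and 3.

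Values for each heart are given for the 6 cytokinesis genes and, in every other role, for the gene with the smallest p and that with the largest difference. Further pathway genes were named by the 4 smallest p in each direction. Genes and lists were chosen with earlier results of these data known. Alternatives were the block, leaving out hearts, the Xist covariate, the mean of probe sets, a filter at a mean of 6, further quantile normalization, trend and robust variance, and array weights.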

Additional observations from a re-analysis of the deposited data

How the results depend on the processing

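Over 18 alternative settings, 0 of the 39 genes passed over all genes in 17, and 1, Ttk, passed with array weights (log2 difference 0.27, limma adjusted p = 0.0478), a setting in which 416 of all genes passed, and 12 of the 39 and 26.3% of all genes had an unadjusted p under 0.05. The cause of that rise was not tested. Over its alternatives Ttk differed by 0.072 to 0.36, with limma adjusted p from 0.0478 to 1.00. Leaving out each heart in turn gave 18 to 37 genes higher in knockout and medians from -0.019 to 0.19 (-0.057 to 0.19 for cytokinesis genes). In these fits 1 to 14 of the 39 had an unadjusted p under 0.05, against 2.18% to 17.5% of all genes. The adjusted threshold was passed by 0 to 4 of all genes.

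With the replicate number as a block (replicate pairing), 13 of all genes passed. Of the 39, 2 had an unadjusted p under 0.05, against 7.29% of all genes, and the block changed no other call among the 39. The block without replicate 1 gave 11 genes and 4 of the 39 (11.0% of all genes at the unadjusted threshold), without replicate 2 it gave 36 and 3 (6.78%), and without replicate 3 it gave 0 and 2 (3.29%). The Xist covariate, a fit that rests largely on knockout 2, gave 4 of the 39 at that threshold, against 7.46% of all genes. The mean of probe sets gave 3 of all genes. Settings chosen after seeing the data were the hearts without replicate 1 of either genotype (8 of the 39 against 13.1% of all genes, with 1 of all genes passing) and the high-Xist hearts, where the lone knockout is assumed to vary like wild type (7 of the 39 against 13.9% of all genes). Of 697 values of single genes under these settings, 690 kept their direction or moved by less than the spread between hearts. Those that crossed 0 by more were of Ccnf (0.10 with the mean of probe sets), Cdca5 (0.05 in 2 settings), Tpx2 (-0.28 with the Xist covariate, -0.30 in the high-Xist hearts) and Ect2 (0.34 in the high-Xist hearts). The number of arrays limits every value.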
